A study of Mus musculus with 10 samples.

Results

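The 3 control libraries of a 10-library RNA-seq series were described here on their own, as the baseline picture of T cells in an untreated mouse melanoma. They were chosen by their sample descriptions, which call them control, and no contrast with the 7 treated libraries was made. The mice carried BrafCA and Tyr::CreER, so an inducible Cre recombinase under the tyrosinase promoter of melanocytes switches on mutant Braf where the tumor is induced locally. The genotype field reads wild type although the strain field lists these alleles. From day 30 after induction, with tumors under 100 mm3, the protocol gave normal chow to mice without the inhibitor, for 30 days or to an endpoint of 2 cm3. In some experiments of the study mice also received vehicle (PBS), and whether the control mice did is not stated. Mice were age-matched, with no age given. Each library pooled at least 3 tumors, and whether those tumors came from different animals, or whether libraries share an animal, is not stated.

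The titles name T cells, the tissue field names tumor associated macrophages, and the extraction text lists no step that selects either. The defining genes were therefore checked first. All 12 genes of a T cell marker list passed the filter of 10 or more normalized counts in at least 2 of the 3 libraries, with summed levels of 13018, 15051 and 13108 TPM in control 1, 2 and 3 (TPM, a level per length of exon that was scaled here to 1000000 per library). The macrophage and monocyte list, 13 of 15 passed, summed to 216, 253 and 208 TPM. Its highest members Apoe, Lyz2, Cd68 and C1qb averaged 91.4, 67.1, 20.9 and 17.7 TPM. The high-affinity Fc receptor gene Fcgr1 was at 0 in all 3 libraries. Cd14, the other member that did not pass, had 0, 0 and 186 normalized counts, or 19.3 TPM in control 3. Csf1r, the receptor that defines macrophages, had 3.53, 3.36 and 3.29 TPM. Cd3e, a signalling chain of the T cell receptor, stood at 178, 125 and 305 times the level of Csf1r. The titles, and not the tissue field, matched the markers that led the libraries, with macrophage genes present at a lower level.

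T cells recognise antigen through a receptor of alpha and beta, or gamma and delta, chains that signals through the CD3 proteins. Helper cells carry CD4 and cytotoxic cells CD8, and both divide into subsets with their own transcription factor and secreted products: T-bet and interferon gamma in type 1 cells, GATA3 and interleukins 4, 5 and 13 in type 2 cells, interleukin 17 in type 17 cells, and Foxp3 in regulatory T cells. In tumors, regulatory cells restrain cytotoxic ones, and exhausted cells accumulate inhibitory receptors. In mouse skin, gamma delta T cells are a known source of interleukin 17.

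Of 48825 genes in the deposited table, 13097 passed the filter, and 12974 of these had an exon length and were ranked by mean level, rank 1 being the highest. Their median level was 9.88 TPM, and 1400 of them (10.8%) reached 100 TPM. The lists of lineage, subset, effector, cytokine, receptor, state and marker genes held 470 genes, of which 398 passed. Normalized counts summed to 11941067, 12689076 and 12076535. These totals are scaled values and not read depth, which is unknown here. For a 2000-base gene, 3 counts correspond to 0.242 to 0.278 TPM, the floor under which a level is not told from 0. Levels are given in the order control 1, 2 and 3, and means are ± SD (n = 3 libraries). With 3 libraries and no contrast no test was run: an exact two-sided sign-flip test over 3 libraries cannot go below 0.25. In bulk RNA, fewer cells of a type and less RNA per cell cannot be told apart.

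The libraries were alike in rank across genes and differed in some respects that touch the results. Across the 8770 genes with a mean of 100 or more normalized counts, Spearman's rho across genes was 0.870 between control 1 and 2, 0.899 between 1 and 3, and 0.877 between 2 and 3. The median coefficient of variation was 25.0%, and 30.4% of these genes differed by more than 2 times between their highest and lowest library. Control 2 stood apart by transcript length. For genes whose longest annotated transcript is up to 1000 bases, the median log2 of control 2 over the other libraries was 0.33, and for genes over 5000 bases it was -0.38. Control 2 was the lowest library for 35.5% of the genes, 10.9% of the short ones and 57.7% of the long ones. Transcription factor genes had a median longest transcript of 4279 bases, against 3171.5 over all genes. They were lowest in control 2 in 34 of 42 cases (81.0%), with a median log2 of -0.87. For all genes of 3000 to 5000 bases the median log2 of control 2 was only -0.06, and 40.2% were lowest there. The part of length in the transcription factor values was not tested. Ratios that leaving out control 2 moved by more than 1.5 times are given below with that value, and the part of length in them was not tested. Y-linked genes summed to 2438, 0 and 0 normalized counts, and Xist, transcribed from the inactive X chromosome, stood at 12, 281 and 3217, so Y-linked transcripts were found in control 1 alone.

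**Figure D1:**
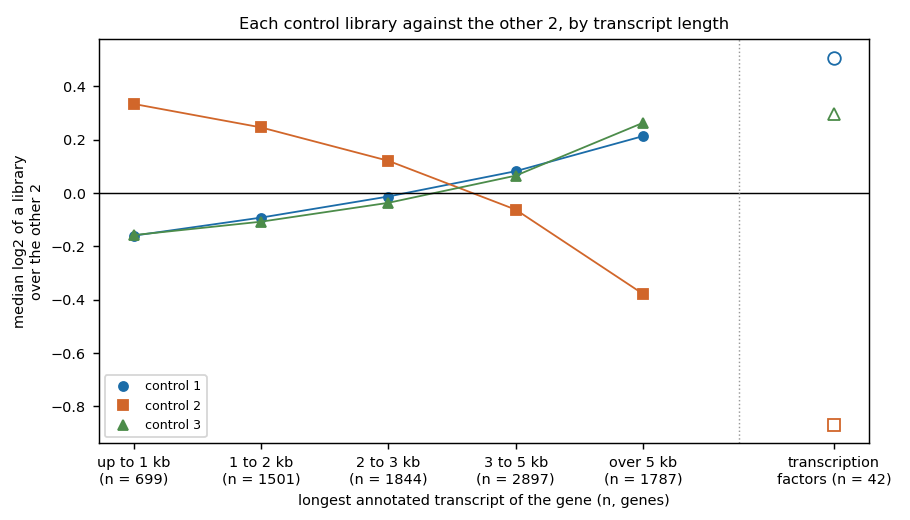
Median log2 of each control library over the mean of the other 2, for genes binned by their longest annotated transcript (horizontal axis) and, at the right with open symbols, for the 42 listed transcription factors with a mean of 100 or more normalized counts. Control 2 runs from 0.33 for the shortest genes to -0.38 for the longest, and lies at -0.87 for the transcription factors.

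The T cell receptor was among the most abundant products of these libraries. Trac, the constant region of the alpha chain (GRCm38 chromosome 14, 54220521 to 54224206), stood at 3165, 3683 and 3073 TPM and ranked 33 of 12974. Trbc2 and Trbc1, the nearly identical beta constant regions between which reads may be split unevenly, averaged 2851 ± 173 and 1688 ± 228 TPM. The highest genes of all were not T cell genes: Actb (cytoskeletal actin) averaged 41018 ± 8901 TPM, Tmsb4x (an actin-binding peptide) 16112 ± 2420.1 TPM and B2m (the light chain of MHC class I) 16030.4 ± 2388 TPM. The remaining places of the first 10 went to the 78-base processed pseudogene Gm10736, the noncoding Gm42418 and Gm37376, the mitochondrial mt-Nd1, mt-Cytb and mt-Co1, and ribosomal Rpl32. Gm10736 had 8649, 11075 and 9119 normalized counts, and division by its short length makes a large TPM of them.

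Among the CD3 chains, Cd3g ranked first with 933, 1207 and 1031 TPM. Cd3d, its partner in the complex, had 895, 1091 and 828 TPM and was below Cd3g in each library, at 0.959, 0.904 and 0.803 times its level. Cd3e varied most, with 627, 419 and 1003 TPM, lowest in control 2 and highest in control 3. The proteins assemble in fixed numbers, and the transcript levels of Cd3e and Cd3g stood at ratios of 0.672, 0.347 and 0.973. Cd247, the zeta chain, averaged 168 ± 10.7 TPM, with 60.3% of its exonic bases shared with another gene, where reads may have been left unassigned. Ptcra, the pre-T alpha chain of developing thymocytes, was at 0 in all 3 libraries.

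The other genes of the lineage followed the receptor. All 18 of the co-receptor and lineage list passed, 10 of them at 100 TPM or more, with a median of 128 TPM against 9.88 over all genes. Cd2, an adhesion receptor, averaged 1431 ± 230.0 TPM. The kinase Lck, which starts receptor signalling, averaged 833 ± 69.3 TPM, and the adaptor Lat 579 ± 119.8 TPM. Lcp2, the adaptor SLP-76, averaged 276 ± 47.4 TPM, and Ptprc, which encodes CD45, 134 ± 14.2 TPM.

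Cd4 and Cd8a transcripts were of similar level. Cd4, the helper co-receptor, had 98.7, 89.2 and 105 TPM and Cd8a, the CD8 alpha chain, had 97.4, 75.1 and 72.7 TPM. The ratio of Cd4 to Cd8a was 1.01, 1.19 and 1.45, a geometric mean of 1.20, above 1 in all 3 libraries but barely so in control 1. Cd8b1, the CD8 beta chain restricted to conventional CD8 cells, reached 348, 300.1 and 316 TPM, or 3.96 times Cd8a. With mean transcript length in place of all exonic bases the Cd4 to Cd8a ratio was 2.73, so its size depends on which isoforms are assumed. Zbtb7b, the factor of the CD4 lineage, stood below Runx3, that of the CD8 lineage, at ratios of 0.233, 0.307 and 0.128. Both were lowest in control 2.

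Transcripts of delta and gamma constant regions were present, each below Trac by mean level. These are levels of transcripts and give no share of gamma delta cells. Trdc, the delta constant region (GRCm38 chromosome 14, 54142851 to 54148868), had 305, 236 and 368 TPM and ranked 508. Its ratio to Trac was 0.0963, 0.064 and 0.12, a geometric mean of 0.0903, lowest in control 2 and highest in control 3. Tcrg-C1, a gamma constant region, was 1.62 times Trdc, with 1.63, 1.54 and 1.69 in the 3 libraries. Tcrg-C2 averaged 354 ± 120.1 TPM and Tcrg-C4 205 ± 26.3 TPM, while Tcrg-C3 did not pass. Gamma constant genes are near copies, and the split between them is uncertain.

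**Figure D2:**
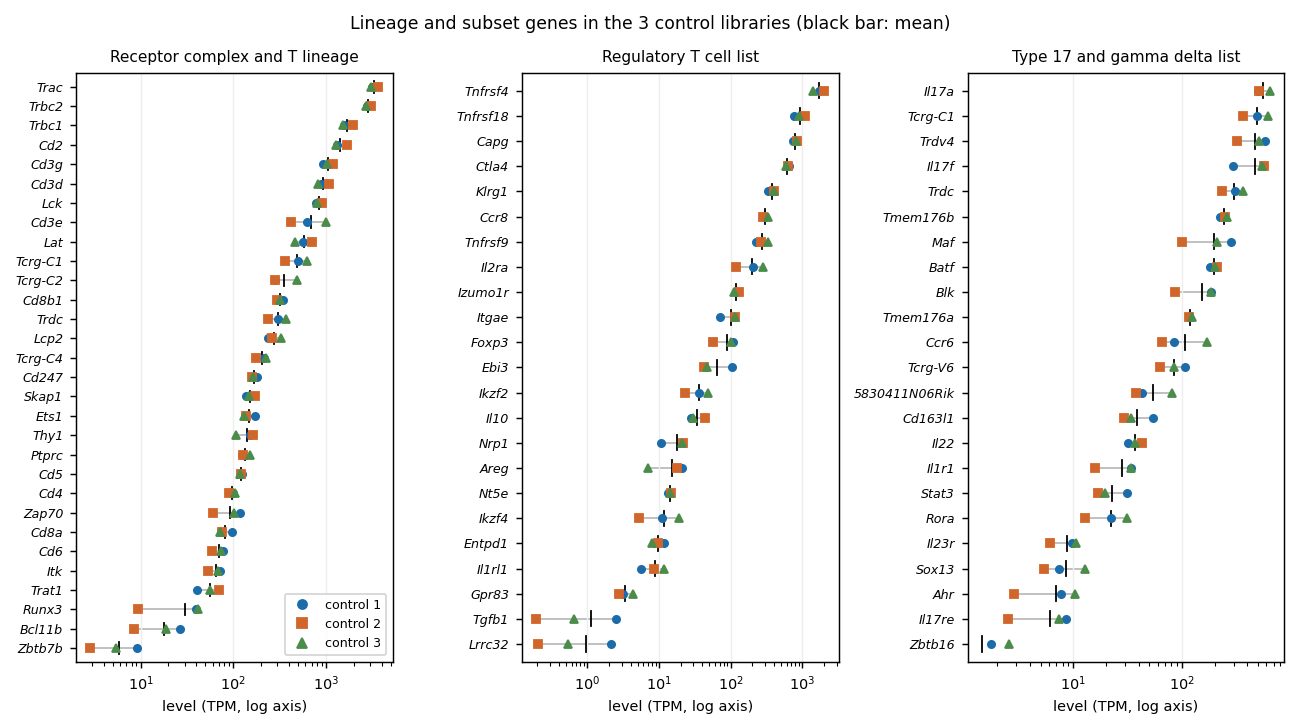
Levels in TPM (log axis) of genes past the filter in the receptor and T lineage lists, the regulatory T cell list and the type 17 and gamma delta list, with 1 symbol per control library and a black bar at the mean; libraries at 0 are not drawn. Cd247 and Cd5 lie close together between libraries, while Cd3e, Runx3, Bcl11b and Zbtb7b are lowest in control 2.

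Genes that mark tumor regulatory T cells ranked high. All 23 genes of that list passed, 10 at 100 TPM or more, with a median of 64.9 TPM. Tnfrsf4, the costimulatory receptor OX40, led with 1728, 2010.1 and 1416 TPM at rank 83. Tnfrsf18, which encodes GITR, had 770.3, 1100.0 and 894 TPM, and Ctla4, the inhibitory competitor of CD28, 646, 619 and 585 TPM. Capg, an actin-capping protein found in effector regulatory cells, averaged 799 ± 44.8 TPM, and Klrg1, a receptor of terminal effector cells, 377 ± 43.1 TPM. Activated conventional T cells also express several of these genes.

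Foxp3, the defining factor of the subset (GRCm38 chromosome X, 7573644 to 7595245), had 107, 57.2 and 99.6 TPM, lowest in control 2. Its ratio to Cd4 was 1.08, 0.641 and 0.948, a geometric mean of 0.87 that straddled 1. Of the exonic bases of Foxp3, 31.5% are shared with another gene. Counting only unshared bases put the ratio at 1.27, and mean transcript length put it at 0.551, so its side of 1 is not settled. Il2ra, the high-affinity subunit of the interleukin 2 receptor, was above Foxp3 in every library, at ratios of 1.89, 2.07 and 2.80. Ikzf2, or Helios, was below Foxp3 in every library, at 0.333, 0.399 and 0.487. Of the secreted products, Ebi3 averaged 64.9 ± 35.3 TPM and Il10 33.9 ± 8.81 TPM, while Tgfb1, encoding transforming growth factor beta 1, had 2.50, 0.192 and 0.64 TPM. Tgfb1 to Il10 ratios were 0.0892, 0.00437 and 0.0216, and the geometric mean of 0.0203 became 0.0097 without control 1 and 0.0439 without control 2. The control 2 ratio rests on a Tgfb1 level below the floor of 0.242 TPM given above for a 2000-base gene. Lrrc32, which anchors the latent cytokine on regulatory cells, averaged 0.959 ± 1.03 TPM.

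The type 17 genes held the highest interleukin levels. Il17a, encoding interleukin 17A, had 504, 507 and 647 TPM and ranked 284, above 97.8% of ranked genes. Il17f, its close relative, had 293, 566 and 551 TPM and ranked 334, lowest in control 1. The ratio of Il17f to Il17a was 0.582, 1.12 and 0.852, with control 2 above 1 and the others below. It was 1.41 per longest transcript and 2.08 per mean transcript length, so the order of the pair depends on the length used; the union of Il17f exons (2022 bases) is longer than its longest transcript (1178 bases). Ifng, encoding interferon gamma, had 125, 133 and 78.0 TPM and ranked 1253. Il17a exceeded Ifng in all 3 libraries, by 4.02, 3.82 and 8.29 times, a geometric mean of 5.03 (SD of log2 0.63), or 3.08 with mean transcript length. Of the exonic bases of Ifng, 25.9% are shared with another gene, where reads may have been left unassigned, and this limit holds for every ratio to Ifng.

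Promoters of these 3 genes are shown because they lead the interleukin and interferon list. Each window runs from 250 bases before the annotated start to 50 after it, on the gene's strand, 5′ to 3′, from RefSeq on GRCm38.p6: Il17a at chr1:20730655-20730954 (+), Il17f at chr1:20784221-20784520 (-), and Ifng at chr10:118440796-118441095 (+). Capitals mark matches, on both strands, to TATAAA (the TATA box core), AGGTCA (a core motif read by nuclear receptors, TGACCT on the other strand) and TGANTCA (an AP-1 motif).
Il17a: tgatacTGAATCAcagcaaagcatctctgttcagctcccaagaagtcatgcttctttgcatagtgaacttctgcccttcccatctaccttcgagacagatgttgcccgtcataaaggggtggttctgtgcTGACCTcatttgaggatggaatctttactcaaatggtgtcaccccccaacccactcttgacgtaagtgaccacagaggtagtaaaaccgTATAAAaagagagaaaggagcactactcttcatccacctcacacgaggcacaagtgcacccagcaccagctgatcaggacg
Il17f: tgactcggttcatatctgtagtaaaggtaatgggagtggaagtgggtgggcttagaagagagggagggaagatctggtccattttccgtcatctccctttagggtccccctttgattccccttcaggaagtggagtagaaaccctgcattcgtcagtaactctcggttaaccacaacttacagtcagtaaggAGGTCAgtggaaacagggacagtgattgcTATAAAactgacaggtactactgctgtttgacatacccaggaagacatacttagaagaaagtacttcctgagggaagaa
Ifng: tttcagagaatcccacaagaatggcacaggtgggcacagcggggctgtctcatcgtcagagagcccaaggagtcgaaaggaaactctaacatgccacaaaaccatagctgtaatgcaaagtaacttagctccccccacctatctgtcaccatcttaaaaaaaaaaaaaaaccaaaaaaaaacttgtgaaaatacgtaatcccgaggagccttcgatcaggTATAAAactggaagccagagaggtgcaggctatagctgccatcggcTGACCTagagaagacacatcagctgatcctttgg
In all 3 windows TATAAA lay on the gene's strand, its first base at -31 in Il17a, -29 in Il17f and -30 in Ifng, where 1 is the first transcribed base and -1 the base before it. AGGTCA or its complement began at -120 in Il17a, -58 in Il17f and 17 in Ifng, and TGANTCA at -244 in Il17a. None of these matches overlapped. Over 32851 RefSeq windows of 300 bases, 13.6% held TATAAA, 16.3% AGGTCA and 7.81% TGANTCA, so a match is common. Position was rarer: a TATAAA beginning between -40 and -20 on the gene's strand was found in 148 of 9175 genes past the filter with a window (1.61%). Of the interleukin and interferon genes past the filter, 7 of the 15 with a window had it (46.7%), namely Il17a, Il17f, Ifng, Il2, Il13, Il1b and Il33. In the secreted and ligand lists together the count was 10 of 45 (22.2%), in the receptor lists 1 of 73 (1.37%, Cxcr4), and in the cytotoxic list 0 of 16. It was not limited to secreted products: the count was 3 of 37 among transcription factors (8.11%, Foxp3, Irf4 and Tox2) and 2 of 17 in the regulatory T cell list (11.8%, Foxp3 and Areg). This position was examined after the 3 windows were seen, and those 3 are among the 10 secreted and ligand genes. These are matches of letters and show no binding.

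The other genes of the type 17 and gamma delta list all passed, 24 of 24, with a median of 69.5 TPM and 11 at 100 TPM or more. Maf, a factor of type 17 and regulatory cells, had 283, 101 and 211 TPM, and Blk, a kinase of interleukin 17-producing gamma delta cells, 186, 86.9 and 187 TPM. Both were lowest in control 2, as were 16 of the 23 genes of the list with a mean of 100 or more normalized counts, against 35.5% of all genes. Ccr6, the receptor for CCL20, averaged 106 ± 55.4 TPM. Tmem176b and Tmem176a, ion channel genes, averaged 244 ± 17.4 and 118 ± 4.68 TPM with little spread. Cd163l1 and its gene relative 5830411N06Rik, scavenger receptors of gamma delta cells, averaged 38.9 ± 13.0 and 53.9 ± 23.9 TPM. Il1r1 and Il23r, receptors for the cytokines that drive interleukin 17 release, averaged 28.0 ± 10.4 and 8.82 ± 2.32 TPM, with Il23r at 0.289, 0.386 and 0.309 times Il1r1. Il22, a skin-directed cytokine of the same cells, had 31.9, 42.8 and 37.3 TPM, or 0.0676 times Il17a.

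The defining factors of the helper subsets differed in level and in how they varied between libraries. Gata3, needed by type 2 and regulatory cells, had 144, 68.6 and 146 TPM and was higher by mean level than Foxp3 and Tbx21. Rora, an orphan nuclear receptor of type 17 and innate lymphoid cells, had 22.3, 12.7 and 31.3 TPM, lowest in control 2. Tbx21, which encodes T-bet, had 15.7, 0.325 and 11.5 TPM, or 211, 5 and 159 normalized counts. Control 2 held almost none of it, and every ratio to Tbx21 lay highest there. Foxp3 to Tbx21 ratios were 6.80, 176 and 8.69, and their geometric mean of 21.8 became 7.69 without control 2, 39.1 without control 1 and 34.6 without control 3. Gata3 to Tbx21 ratios were 9.17, 211 and 12.8, with 10.8 without control 2, 52.0 without control 1 and 44.0 without control 3. In each library Foxp3 and Gata3 were both above Tbx21. Eomes, the related factor of memory CD8 and NK cells, averaged 2.71 ± 1.50 TPM. Its ratio to Tbx21 turned, being 0.244, 3.11 and 0.286, with geometric means of 0.944 without control 1 and 0.264 without control 2.

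Type 1 genes beyond Tbx21 were present. Of 14, 13 passed, with a median of 26.1 TPM, and Hlx was at 0. Cxcr3, the receptor for interferon-induced chemokines, had 122, 197 and 143 TPM, and Bhlhe40, a factor that supports interferon gamma output, 130.2, 88.6 and 126 TPM. Il18r1, a subunit of the interleukin 18 receptor, averaged 53.0 ± 19.4 TPM. Il12rb2, the inducible subunit of the interleukin 12 receptor, had 3, 100 and 32 normalized counts, too uneven for a ratio: against Il12rb1 it was 0.00882, 0.41 and 0.201, or 0.287 without control 1 and 0.0421 without control 2.

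The type 2 interleukin genes Il4, Il5 and Il13 were detected in all 3 libraries. Il4 had 10.9, 32.1 and 23.2 TPM, Il5 14.2, 33.5 and 18.4 TPM and Il13 7.54, 16.8 and 18.2 TPM, each lowest in control 1. All were below Ifng: Il4 stood at 0.0867, 0.242 and 0.298 times Ifng and Il13 at 0.0601, 0.126 and 0.233 times. Il5 was 1.89, 2.00 and 1.02 times Il13, the pair being level in control 3. Stat6, which carries the interleukin 4 signal, averaged 42.5 ± 6.80 TPM, and Ccr4 33.0 ± 15.0 TPM. Il1rl1, the receptor for interleukin 33, was below Il18r1 in every library: the ratio of Il18r1 to Il1rl1 was 13.3, 4.08 and 4.24, highest in control 1. Il9 did not pass, with 0, 32 and 1 normalized counts.

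The follicular helper list showed its shared receptors and little else. Icos, a costimulatory receptor, had 475, 613 and 766 TPM, and Pdcd1, which encodes PD-1, 156, 172 and 203 TPM. Bcl6, the defining factor of follicular helper cells, averaged 0.592 ± 0.367 TPM, and its antagonist Prdm1 (Blimp-1) 16.2 ± 7.70 TPM. Bcl6 was below Prdm1 in each library, at 0.0406, 0.0232 and 0.0374 times its level. Cxcr5, the homing receptor to follicles, averaged 2.86 ± 2.38 TPM, Sh2d1a (the adaptor SAP) 42.8 ± 8.69 TPM, and Ascl2 was at 0. Il21 had 0.458, 1.38 and 3.34 TPM, and its ratio to Ifng, 0.00365, 0.0104 and 0.0429, moved from 0.0118 to 0.0211 without control 1 and 0.00617 without control 3.

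Cytotoxic genes were led by a chemokine and granule proteins. Ccl5, the chemokine stored by effector CD8 and NK cells, had 4332, 4547 and 2571 TPM and ranked 22. Nkg7, a granule membrane protein, had 1960.2, 2502 and 1411 TPM, and Srgn, the proteoglycan that packs granules, 1269, 1701 and 1384 TPM. Nkg7 exceeded Gzmb by 8.34, 6.65 and 4.50 times. Gzma and Gzmb encode serine proteases that kill the target cell. Gzma had 371, 408 and 196 TPM and Gzmb had 235, 376 and 314 TPM. Their order turned between libraries, with Gzma to Gzmb ratios of 1.58, 1.08 and 0.626. Ctsw, a granule-associated cathepsin, averaged 297 ± 53.1 TPM. Prf1, the pore protein perforin, was far lower, with 10.2, 18.0 and 13.2 TPM. The ratio of Gzmb to Prf1 was 23.1, 21.0 and 23.8, a geometric mean of 22.6, and it was among the steadiest of all ratios (SD of log2 0.10).

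The other granzymes were uneven. Gzmc had 32.3, 44.5 and 131 TPM, highest in control 3. Gzmk, a granzyme of memory-like CD8 cells, averaged 22.5 ± 16.1 TPM. Gzmm had 5.54, 21.0 and 3.05 TPM, and its ratio to Gzmb (0.0236, 0.0558 and 0.0097) moved from 0.0234 to 0.0151 without control 2 and 0.0363 without control 3. Gzmd, Gzme and Gzmg were at 0 and Gzmf did not pass; these genes are near copies of each other, from which reads may have been lost. Fasl, the death receptor ligand, was above Prf1 in all 3 libraries, at 2.88, 2.31 and 3.43. Of the 18 cytotoxic genes with a mean of 100 or more normalized counts, 14 were lowest in control 1, against 33.1% of all genes, and none in control 2.

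Of 27 interleukin and interferon genes, 18 passed, with a median of 22.1 TPM among them. Il2, the T cell growth factor, had 35.2, 55.9 and 29.0 TPM and stood at 0.28, 0.422 and 0.372 times Ifng. Il10 stood at 0.223, 0.332 and 0.381 times Ifng, a similar fraction. Il16, which is made as part of a larger precursor in resting T cells, had 63.2, 66.0 and 75.6 TPM. Ebi3, the shared subunit of interleukins 27 and 35, had 106, 42.4 and 46.6 TPM, highest in control 1. Of the 9 that did not pass, 6 were at 0 in all 3 libraries (Il3, Il6, Il24, Il1a, Il23a and Ifnb1), and the others were Il9, Il27 and Il12a. Il23a and Il12a encode the partner chains of interleukins 23 and 12 and are made chiefly by myeloid cells.

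Among growth factors, Mif, a cytokine made by most cells, had 1199, 1386 and 1128 TPM. Csf2, which encodes GM-CSF, had 73.5, 54.7 and 33.2 TPM and stood at 0.469 times Ifng. Spp1, or osteopontin, averaged 56.3 ± 25.9 TPM, and Osm, or oncostatin M, 24.1 ± 1.77 TPM. Areg, a repair factor of regulatory and type 2 cells, averaged 15.1 ± 7.20 TPM. Csf1, the ligand of the receptor that the study's inhibitor blocks, had 5.62, 0.306 and 1.26 TPM. Csf1 to Csf2 ratios were 0.0765, 0.00559 and 0.0379, and the geometric mean of 0.0253 became 0.0145 without control 1 and 0.0538 without control 2. Csf3, Tgfb2, Tgfb3, Hbegf and Vegfa did not pass.

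Of 15 TNF family ligands, 13 passed, and Tnfsf12 and Tnfsf15 did not. Of the lymphotoxin chains, Ltb had 266, 215 and 123 TPM and Lta had 151, 205 and 138 TPM, and their order turned in control 3. Cd40lg, the ligand by which helper cells license antigen-presenting cells, had 86.3, 94.4 and 145 TPM, highest in control 3. Its receptor gene Cd40 was lower in all 3 libraries: ratios of Cd40lg to Cd40 were 4.33, 20.5 and 30.6, with a geometric mean of 14.0, or 25.1 without control 1. Tnf, encoding tumor necrosis factor, had 39.9, 31.3 and 50.3 TPM and was below Ifng in each library, at 0.318, 0.236 and 0.646 times. Tnfsf8 and Tnfsf9, the ligands of CD30 and 4-1BB, averaged 53.1 ± 8.64 and 51.9 ± 19.1 TPM.

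Chemokine genes after Ccl5 fell off steeply. Ccl4, an inflammatory chemokine of activated T cells, had 337, 458 and 299.7 TPM, and Ccl5 was 10.3 times higher per length. Ccl3, the neighbour and relative of Ccl4, was lower by 8.26 times, with Ccl4 to Ccl3 ratios of 7.33, 7.97 and 9.63. Xcl1, which draws cross-presenting dendritic cells, had 134, 212 and 214 TPM. Ccl22, a ligand of CCR4, had 225, 55.7 and 86.2 TPM, and Ccl1, the ligand of CCR8, 39.5, 171 and 91.2 TPM. Ccl22 was highest in control 1 and Ccl1 in control 2. The interferon-induced Cxcl9 was at 0 and Cxcl10 averaged 8.68 ± 2.44 TPM. Ccl2, Ccl24, Cxcl1, Cxcl3 and Cxcl11 also did not pass, leaving 18 of 24.

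**Figure D3:**
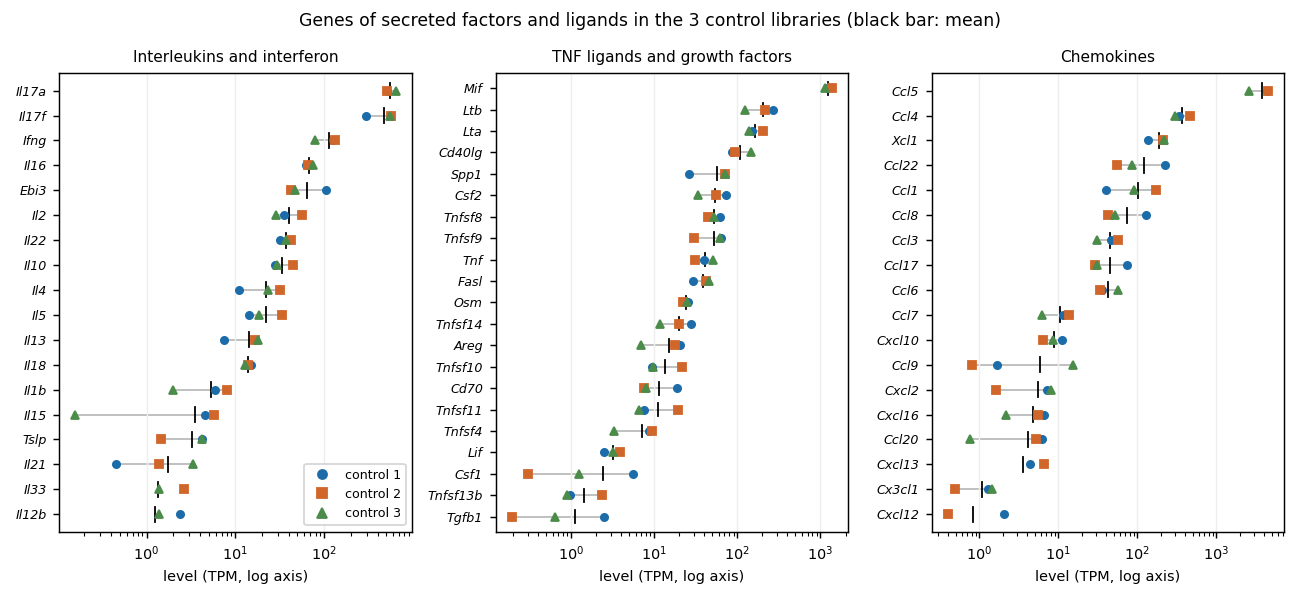
Levels in TPM (log axis) of every gene past the filter among interleukins and interferon, TNF family ligands and growth factors, and chemokines, with 1 symbol per control library and a black bar at the mean; libraries at 0 are not drawn. Il17a and Il17f lie above all other interleukins, Ifng follows at a mean of 112 TPM, and Ccl5 lies above all other chemokines.

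Homing receptors were led by Cxcr6, the receptor for CXCL16 on tissue-resident cells, with 1037, 1273 and 1394 TPM and rank 138. Selplg and Itgb7, an adhesion ligand and an integrin chain, averaged 386 ± 66.9 and 309 ± 60.9 TPM. Ccr8, found on regulatory T cells of tumors and skin, had 297, 283 and 333 TPM. Ccr7, the lymph node receptor of naive and central memory cells, had 381, 212 and 244 TPM. Cxcr6 exceeded Ccr7 in all libraries, by 2.72, 6.01 and 5.71 times. Ccr8 exceeded Ccr4 by 15.5, 9.14 and 6.81 times. Ccr2, the receptor of inflammatory monocytes and effector T cells, averaged 102 ± 6.00 TPM. Ccr6 to Cxcr3 ratios were 0.687, 0.333 and 1.18, on different sides of 1, and so were Cxcr4 to Cxcr3 ratios, 1.63, 0.92 and 1.08. Cxcr1 and Cxcr2, the neutrophil receptors, did not pass, and 28 of 30 did.

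Cytokine receptor genes passed in 35 of 36 cases, at a median of 13.9 TPM; the exception was Il17rc. Ifngr1, the ligand-binding chain of the interferon gamma receptor, had 698, 887 and 814 TPM, while its signalling partner Ifngr2 averaged 15.6 ± 3.92 TPM. Il2rg, the chain common to the interleukin 2 family, had 699, 846 and 699 TPM, and Il2rb averaged 145 ± 41.8 TPM. Il2ra to Il2rb ratios were 1.61, 1.01 and 1.45, above 1 in each library though barely so in control 2, and their geometric mean of 1.33 was 2.73 with mean transcript length. Il2rb was 0.18, 0.138 and 0.276 times Il2rg. Il1r2, a decoy receptor for interleukin 1, had 207, 343 and 280.4 TPM and was far above the signalling Il1r1. Il7r, the survival receptor of naive and memory cells, had 198, 181 and 226 TPM, and its ratio to Il2ra straddled 1 (0.979, 1.53 and 0.808). Klrg1 was 1.66, 2.25 and 1.76 times Il7r, but the geometric mean of 1.87 was 0.899 with mean transcript length, so the order of these 2 genes depends on the length used.

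Inhibitory receptors were led by Ctla4 and Tigit. All 20 genes of the list passed. Tigit, which competes for the ligands of CD226, had 559, 309 and 779.7 TPM, lowest in control 2, and was 3.59, 1.79 and 3.84 times Pdcd1. Pdcd1 was below Ctla4 in all libraries, the ratio of Ctla4 to Pdcd1 being 4.15, 3.60 and 2.88, a geometric mean of 3.50, or 7.56 with mean transcript length. Cd96, of the same family as Tigit, averaged 149.6 ± 36.5 TPM, and Cd5 121 ± 3.80 TPM. Havcr2, which encodes TIM-3 of exhausted cells, had 14.2, 29.1 and 35.1 TPM and was below Pdcd1 in every library, at 0.091, 0.169 and 0.173 times. Lag3, a further receptor of such cells, had 9.58, 12.7 and 8.16 TPM and was also below Pdcd1 in each, at 0.0615, 0.0739 and 0.0402 times. Cd274, which encodes PD-L1, averaged 18.7 ± 2.50 TPM.

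Costimulatory receptors all passed, 16 of 16, at a median of 86.1 TPM. Behind Tnfrsf4 and Cd2 came Cd48, a partner of CD2, with 1175, 1581 and 1484 TPM. Tnfrsf18 was below Tnfrsf4 in each library, at 0.446, 0.547 and 0.632 times, and Tnfrsf9 (4-1BB) at 0.131, 0.131 and 0.236 times. Cd28, the primary costimulatory receptor, was only 92.2, 46.0 and 151 TPM. Ctla4, which binds the same ligands, exceeded it by 7.01, 13.5 and 3.87 times, most in control 2, where Cd28 was lowest. Icos exceeded Cd28 by 5.16, 13.3 and 5.07 times.

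**Figure D4:**
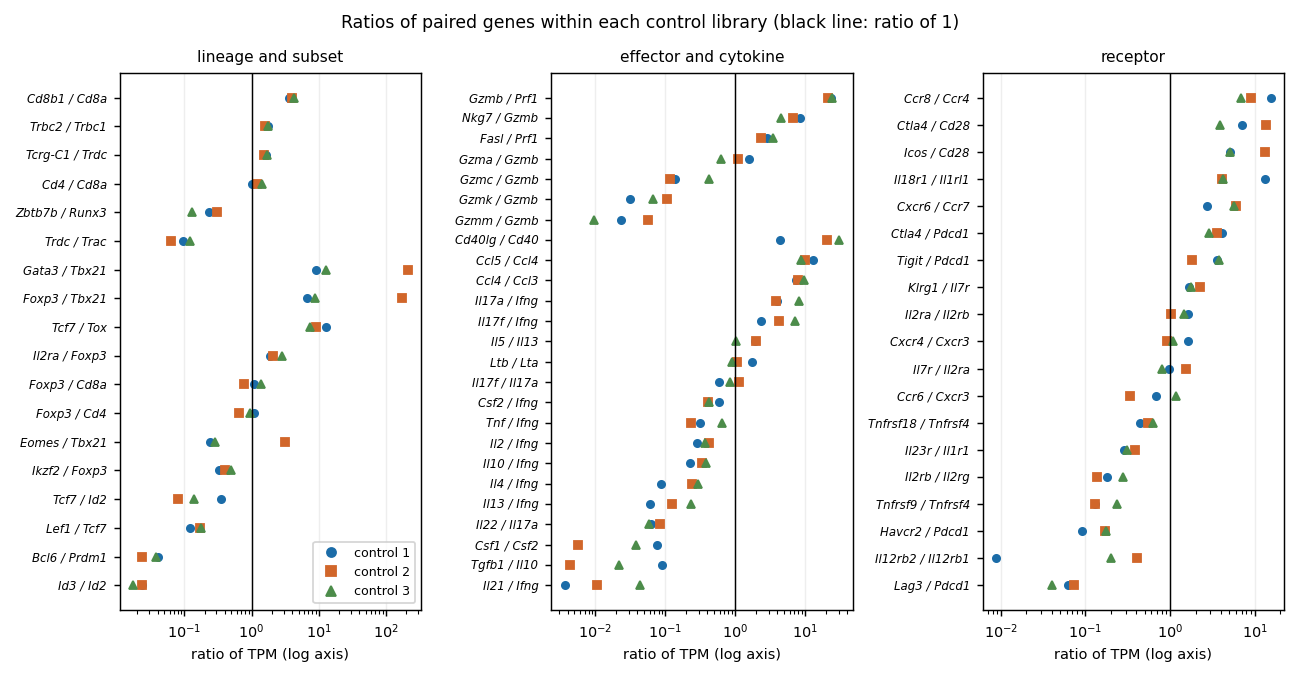
Ratios of the TPM of paired genes within each control library (log axis), for most pairs with both genes past the filter, grouped by lineage and subset, effector and cytokine, and receptor; the black line marks a ratio of 1. Gzmb to Prf1 stays between 21.0 and 23.8, while ratios to Tbx21 in control 2 lie far from those of the other libraries.

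Transcription factors had a median of 19.9 TPM over the 49 of 50 that passed, against 9.88 TPM over all genes. Egr3 did not pass. Id2, an inhibitor of E proteins in effector and innate-like cells, was the highest with 1034, 1625 and 1891 TPM. Klf6 averaged 273 ± 68.7 TPM and Batf, an AP-1 family factor of activated T cells, 198 ± 14.4 TPM. Tcf7, which encodes TCF-1 of naive and stem-like cells, had 364, 129 and 263 TPM, lowest in control 2. Tcf7 was below Id2 in every library, at 0.352, 0.0791 and 0.139, and above Tox, a factor of exhausted cells, at 12.9, 8.95 and 7.36. Lef1, a relative of Tcf7, was 0.121, 0.171 and 0.176 times Tcf7, and Id3 was 0.023, 0.0237 and 0.0173 times Id2. Bach2, which holds cells in the naive state, averaged 0.354 ± 0.308 TPM, the lowest mean of those that passed.

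Naive, memory and residency genes occurred together. All 15 of the naive and memory list passed at a median of 98.5 TPM, with Cd27 at 133 ± 16.9 and the hyaluronan receptor Cd44 at 130.1 ± 9.07 TPM. Of the residency list 12 of 13 passed at a median of 93.6 TPM. Rgs1, which dampens chemokine signals, had 362, 512 and 415 TPM, and Cd69, which holds cells in tissue, 173, 182 and 207 TPM. Zfp683, or Hobit, did not pass, and the integrin gene Itga1 averaged 0.607 ± 0.116 TPM. All 20 cell cycle genes passed: Rrm2, a ribonucleotide reductase subunit, had 351, 235 and 432 TPM, Pcna, the replication clamp, 201, 253 and 257 TPM, and Mki67, the proliferation antigen, 38.6, 20.3 and 38.2 TPM. Stmn1 and Ccnb2, a tubulin regulator and a mitotic cyclin, averaged 194 ± 61.3 and 156 ± 29.5 TPM.

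Markers of other cells were present at lower summed level than those of T cells. The erythroid and platelet list, 7 of 11 passed, summed to 3123, 3313 and 686 TPM, nearly all hemoglobin, lowest in control 3, with Slc4a1 at 0. Dendritic cell genes, 13 of 13, summed to 2649, 867 and 1606 TPM, highest in control 1 and mostly Cd74, which averaged 1274 ± 613 TPM, with H2-Aa and H2-Ab1. Fscn1 had 67.5, 4.94 and 9.64 TPM, Cd209a 28.6, 3.78 and 21.4 TPM and Batf3 16.1, 4.55 and 7.97 TPM, each highest in control 1. Not all members went this way: the defining Flt3 averaged 1.30 ± 1.13 TPM and was highest in control 3. Zbtb46 averaged 0.848 ± 0.461 TPM. Ccl22 belongs to this list and was also highest in control 1. B and plasma cell genes, 8 of 12, summed to 763, 1379 and 1300.4 TPM, nearly all Igkc and Ighm. Cd79b had 45.5, 36.6 and 70.6 TPM, Cd79a 15.8, 3.88 and 21.8 TPM and Jchain 1.77, 39.2 and 8.55 TPM. The remaining members past the filter, Sdc1, Mzb1 and Ms4a1, averaged 3.42, 2.86 and 0.815 TPM. Pax5, Cd22 and Fcer2a were among those that did not pass. The natural killer list, 11 of 12, summed to 524, 539 and 294 TPM, most of it Gzma, which T cells share; Ncr1, which encodes NKp46, had 76.4, 58.2 and 47.4 TPM, and Cd3e was 8.21, 7.20 and 21.2 times higher. The innate lymphoid list, 12 of 12, is largely shared with T cells. Mast cell and basophil genes, 11 of 11, summed to 109, 104 and 353 TPM, highest in control 3. Keratinocyte genes, 9 of 12, summed to 205, 124 and 298 TPM and fibroblast genes, 10 of 12, to 231, 235 and 271 TPM, with Thy1, shared with T cells, the largest of the latter. The melanocyte list, 6 of 11, summed to 34.4, 45.3 and 46.2 TPM. Pmel led it at a mean of 21.5 TPM, Dct had 0, 3.84 and 7.85 TPM, and Tyr and Slc45a2 were at 0. Gpnmb did not pass, with 0, 2 and 170 normalized counts. Neutrophil and endothelial genes, 3 of 11 each, reached at most 50.7 and 31.7 TPM. How far these cells contribute to the cytokine, chemokine and receptor levels above was not tested.

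**Figure D5:**
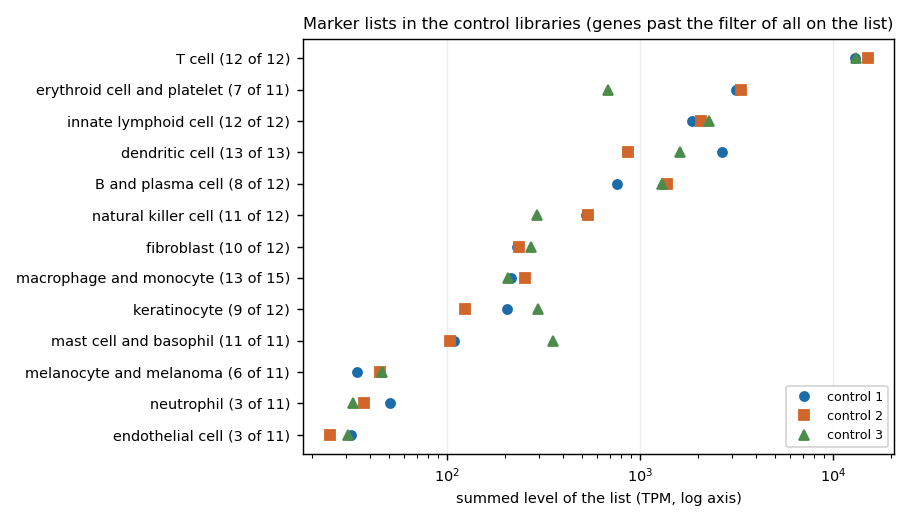
Summed TPM (log axis) of each of 13 marker lists in the 3 control libraries, with the number of genes past the filter. The T cell list lies above the others in every library, and the erythroid list is lowest in control 3.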

How the data were processed

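The unstranded libraries started from 50 ng of RNA and gave paired reads of 75 bases, with 6 libraries in a lane, per the labels' protocols. STAR alignment to GRCm38 (mm10), HTSeq counting and DESeq2 normalization are named in the submitters' processing notes; versions and the annotation release are not given in the sources used here. The deposited values are scores: counts that the authors divided by size factors and rounded. Median-of-ratios factors computed from the 3 control columns lay between 1.01 and 1.02, so no further scaling was applied.

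Lengths were the union of exons in GENCODE vM21, matched for 47029 of 48825 genes, 497 of them through RefSeq synonyms; 27 names turned into numbers (0.306 to 0.325% of counts) had none. TPM is the normalized count per kilobase, scaled to 1000000 per library. It assumes reads spread along the transcript, which was not tested. Ratios are within a library, averaged geometrically; of 74 pairs, 73 had both genes past the filter and 63 were on 1 side of 1 in all 3 libraries. Genes were named by rule: the 10 highest, up to 5 of each list by mean level and every gene of a ratio. List members that failed the filter were named or counted, and the 5 with the largest ratio of highest to lowest library were named. In the marker lists of other cells, some of the highest members were not named. Others named were chosen after their values were seen. The members and lists were chosen with earlier results of these data known. Some listed genes and an allele of the strain are not reported here. The level and ratio code was tested on simulated data. Alternatives changed the filter, length, pseudocount, averaging and libraries. Python 3.11.15, numpy 2.4.6, pandas 2.3.3 and matplotlib 3.10.9 were used.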

Additional observations from a re-analysis of the deposited data

How the results depend on the processing

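With mean transcript length in place of all exonic bases, the ratio of Cd4 to Cd8a was 2.73, Trdc to Trac 0.0651, Foxp3 to Cd4 0.551, Gzmb to Prf1 19.4, Il17a to Ifng 3.08, Il17f to Il17a 2.08, Ctla4 to Pdcd1 7.56 and Il2ra to Il2rb 2.73, and Klrg1 to Il7r turned from 1.87 to 0.899. These moves follow from the lengths alone, since the counts are the same. With the longest annotated transcript, Il17f to Il17a was 1.41 and Ctla4 to Pdcd1 4.22. Besides these, mean transcript length moved 25 of the other 60 ratios by more than 1 SD and the longest transcript 8, and the longest transcript moved the levels of 52 of 195 named genes. With exonic bases of no other gene, chosen after seeing the data, Foxp3 to Cd4 was 1.27, and 10 of the other 60 ratios and 12 of 194 levels moved. With protein-coding genes only, also added later, the median rank of listed genes was 3279 in place of 3701, since fewer genes are ranked. Adding 1 count, or taking the ratio of mean levels, moved none of the 73 ratios by more than 1 SD of the libraries. Leaving out 1 of 3 libraries cannot move a ratio by 1 SD, so that comparison says nothing of stability; 10 ratios moved by more than 1.5 times. Requiring 10 counts in all 3 libraries left 11376 genes in place of 13097, no filter 19547, and leaving out a library 11739 to 12111. No paired analysis was possible because no groups are compared. Read depth is unknown, so no counting interval is given.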

Other observations

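The variable segments of the gamma and delta chains were led by a few segments. Only 6 gamma variable segments were found by name, Trgv2 and Tcrg-V3 to Tcrg-V7. Tcrg-V1 was not among them, so the shares are of these 6 and not of all gamma segments. Trgv2 held 50.7, 49.5 and 53.5% of their counts in control 1, 2 and 3. Tcrg-V4 held 23.2, 30.8 and 32.7% and Tcrg-V6 held 20.9, 11.7 and 10.8%. Tcrg-V5 held 3.14, 4.21 and 2.03%. Among the 6 segments named Trdv, Trdv4 held 74.6, 60.9 and 60.5% and Trdv5 23.3, 27.8 and 33.8%. Segments under an alpha name were counted as alpha, also where delta chains may use them. Of the exonic bases of Trdv5, 47.3% are shared with another gene. The same 2 segments led the delta chain, and Trgv2 the gamma chain, in each library. Alpha and beta segments were spread more widely: 54 of 128 alpha segments passed the filter with Trav3-3 leading at 11.1, 10.5 and 9.49%, and 21 of 35 beta segments passed with Trbv19 leading at 15.0, 15.6 and 13.3%. Trav11, the segment of invariant natural killer T cells, was at 0 in all 3 libraries, and Trav1, that of mucosal-associated invariant T cells, had 144, 152 and 168 normalized counts. These segments were examined after the constant regions had been seen, and their reads may be lost where segments are near copies.

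Genes that answer to tissue digestion and stress were high at the median but uneven. Of the immediate early and dissociation list, 21 of 22 passed at a median of 95.7 TPM, against 9.88 TPM over all genes. Nfkbia, an inhibitor of NF-kB that is induced by it, had 1041, 1022 and 733 TPM, the chaperone Hspa8 745, 756 and 725 TPM, and the mRNA-decay factor Zfp36 328, 205 and 338 TPM. Fos was highest in control 3, at 265, 247 and 489 TPM, and its partner Junb in control 1, at 425, 256 and 161 TPM. Other members were lower: Jun averaged 25.7 TPM, Fosb 14.0 TPM, Egr1 7.93 TPM and Atf3 3.88 TPM. The heat shock gene Hspa1b did not pass and its near copy Hspa1a averaged 1.00 ± 0.463 TPM. Of the 22 genes, 18 reached 10 TPM, against 49.7% of all ranked genes past the filter.

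Among genes past the filter with a mean of 100 or more normalized counts, the 5 with the largest ratio of highest to lowest library were Xist, Igkv12-44, Gm37531, Apol7c and C230085N15Rik. Igkv12-44, an immunoglobulin light chain segment, had 0, 10 and 753 normalized counts. Apol7c, found in dendritic cells, had 367, 0 and 39, with Gm37531 at 185, 0 and 376 and C230085N15Rik at 313, 0 and 365. The last 3 were at 0 in control 2 alone. Malat1, a long nuclear noncoding RNA, stood at 45775, 14056 and 59286 normalized counts and Gm42418, which overlaps ribosomal RNA, at 134046, 72863 and 173601, both lowest in control 2.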
